A study of Mus musculus with 10 samples.

Results

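The uncoupling proteins Ucp1, Ucp2 and Ucp3 and the brown fat genes Cidea and Elovl3 were examined in limb muscle of mouse foetuses. The 5 genes were taken by name from a table of 55401 genes, and each name matched a single row. The muscle came from wild-type ICR foetuses at ED18.5. The study describes this foetal muscle as male. Dams of the GDM group, a model of gestational diabetes, were injected with streptozotocin, a toxin of insulin-producing cells, at GD 6.5 and GD 12.5, and dams of the CTR group received buffer. Each group had 5 libraries. The labels name neither sex nor dam and describe the sample as a mixture of cells, so the p-values measure the spread between libraries, which may share a litter. Every GDM dam received the drug, so an effect of the drug and an effect of high glucose cannot be told apart.

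Uncoupling proteins are carriers of the inner mitochondrial membrane. Ucp1 lets protons return to the matrix without making ATP and so releases heat, and it is the defining gene of brown and beige fat cells. Ucp3 is found mainly in skeletal muscle and brown fat and rises when muscle burns fatty acids, whereas Ucp2 is expressed widely and is abundant in immune cells. Cidea is a lipid droplet protein that in mice marks brown fat cells. Elovl3 is an enzyme of the endoplasmic reticulum that lengthens saturated and monounsaturated fatty acids, known from brown fat in the cold and from sebaceous glands of the skin.

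Levels were given as FPKM, fragments per kilobase of transcript per 1000000 mapped fragments, and a value of 0.0001 stood for no signal. The estimated depth was 14700000 to 16800000 fragments in CTR libraries and 17900000 to 21200000 in GDM libraries. Mitochondrially encoded transcripts took 16.3% to 19.0% of the FPKM in CTR and 9.43% to 12.3% in GDM. The libraries held the fibre genes that define muscle, whose summed level was 34250 to 40470 FPKM in CTR and 19240 to 26990 FPKM in GDM. Adipoq, which encodes adiponectin, lay between 36.1 and 57.1 FPKM in 4 CTR libraries and at 253.5 FPKM in CTR replicate 2, and this library stood apart in other fat genes too. GDM replicates 1 and 3 held the skin keratin Krt5 at 147.8 and 28.4 FPKM, against at most 1.51 FPKM elsewhere, although skin was removed by the study's protocol. In such bulk tissue, fewer cells of a type and less RNA per cell cannot be told apart. Of all 13363 genes that passed the filter on low values (1 FPKM or more in 5 or more libraries), 10.9% were lower and 35.1% higher in GDM (limma on log2(FPKM + 1), adjusted p under 0.05), and the median log2 fold change was 0.15. After median ratio scaling that median was 0.01, with 2653 genes higher and 2480 lower in place of 4691 and 1451.

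Ucp1 lies on chromosome 8 at 83290352 to 83298452 and Elovl3 on chromosome 19 at 46131897 to 46135694 of GRCm38. Ucp3 and Ucp2 are neighbours on the same strand of chromosome 7, at 100472990 to 100486432 and 100493337 to 100502020, with 6904 bases between them. Because Ucp3 and Ucp2 are neighbours that fell by different amounts, the bases directly upstream of each are shown, with those of Ucp1 beside them. The sequences are those of RefSeq on GRCm38.p6, which held 3 of the 5 genes, and are written on the plus strand, along which all 3 genes are read. Capitals mark AGGTCA, the core bound by nuclear receptors such as the PPARs, and CAGCTG, an E-box bound by myogenic factors. Each printed window ends before the first base of the gene in GENCODE, which for Ucp2 is 21 bases and for Ucp3 1 base short of the RefSeq start. The windows are chr8:83290098-83290347 for Ucp1, chr7:100472741-100472989 for Ucp3 and chr7:100493108-100493336 for Ucp2.
Ucp1: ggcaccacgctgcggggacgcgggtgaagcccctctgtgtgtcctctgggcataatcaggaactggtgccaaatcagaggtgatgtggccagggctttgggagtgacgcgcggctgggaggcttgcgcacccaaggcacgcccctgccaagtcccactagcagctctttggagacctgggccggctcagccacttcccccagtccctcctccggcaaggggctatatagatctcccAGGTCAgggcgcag
Ucp3: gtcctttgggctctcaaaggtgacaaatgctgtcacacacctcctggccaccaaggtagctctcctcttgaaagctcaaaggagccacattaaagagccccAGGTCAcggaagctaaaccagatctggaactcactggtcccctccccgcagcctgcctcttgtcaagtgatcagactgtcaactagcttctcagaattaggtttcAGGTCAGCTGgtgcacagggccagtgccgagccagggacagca
Ucp2: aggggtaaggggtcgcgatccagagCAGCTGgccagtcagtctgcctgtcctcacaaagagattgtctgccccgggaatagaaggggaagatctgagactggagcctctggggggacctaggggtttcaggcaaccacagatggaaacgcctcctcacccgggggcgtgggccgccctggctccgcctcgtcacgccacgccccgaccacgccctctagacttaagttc

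Both strands of the 250 bases before each RefSeq start were searched, and distances are counted from that start. The Ucp3 window held AGGTCA at 2 places, starting 149 and 44 bases before the start, and the second shared its last bases with a CAGCTG. The Ucp1 window held AGGTCA once, 14 bases before the start, and the Ucp2 window held CAGCTG once, 225 bases before the start. AGGTCA was found in 14.0% and CAGCTG in 13.0% of 32851 promoters of the same length. TGACGTCA, the cyclic AMP response element (1.55% of promoters), TATAAA (12.4%) and the direct repeat of AGGTCA that PPARs bind (0.0335%) were not in these windows. These are matches of letters only.

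Ucp3 and Ucp2 fell in GDM muscle, Ucp1 was at or near no signal in every GDM library, and Cidea and Elovl3 did not pass the test. Of the 5 genes, 4 passed the filter on low values, and 2 of these 4 were lower with an adjusted p under 0.05, against 10.9% of all genes tested. For the same 2 genes every GDM library lay below every CTR library, which held for 7.43% of all genes tested. In CTR muscle the order of the levels by mean FPKM was Ucp2, Ucp3, Cidea, Ucp1 and Elovl3, and the ranges of the first 3 overlapped. In GDM muscle it was Cidea, Ucp2, Ucp3, Elovl3 and Ucp1. There the ranges of Cidea and Ucp2 overlapped, while Ucp3 lay below both in every library and Elovl3 lay below Ucp3.

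**Figure D1:**
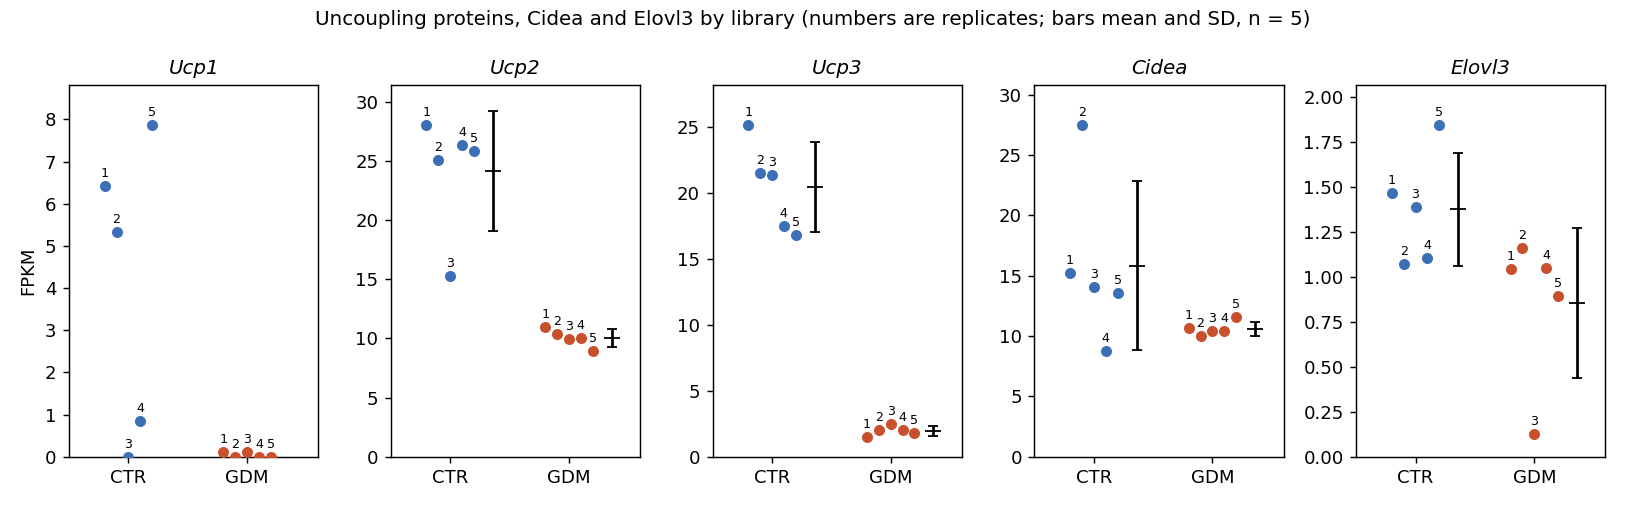
FPKM of Ucp1, Ucp2, Ucp3, Cidea and Elovl3 in each library (points, numbered by replicate), with mean and SD of 5 libraries per group beside them except for Ucp1, which has libraries listed at no signal. Only in the panels of Ucp2 and Ucp3 do the GDM points lie wholly below the CTR points, at 8.89 to 10.98 against 15.3 to 28.1 FPKM and 1.46 to 2.48 against 16.8 to 25.2 FPKM.

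Ucp3, the muscle uncoupling protein, had 25.2, 21.5, 21.4, 17.5 and 16.8 FPKM in CTR replicates 1 to 5. In GDM replicates 1 to 5 it had 1.46, 1.997, 2.48, 1.99 and 1.81 FPKM. The highest GDM library was well below the lowest CTR library. The mean fell from 20.5 ± 3.41 to 1.95 ± 0.37 FPKM (SD, n = 5 each), so that GDM muscle kept 9.52% of the CTR mean. The log2 fold change was -2.86 (standard error 0.12, adjusted p = 1.2e-06, limma), and only 10 tested genes had a lower one. The two-sided exact permutation test gave p = 0.0079, the smallest that 5 against 5 libraries allow. An antisense transcript, Gm10603, shares 1857 bases with Ucp3 and was at 0.366 to 1.09 FPKM in CTR and 0.165 to 0.204 FPKM in GDM.

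Ucp3 fell further than fibre genes and fat oxidation genes did on average. All 12 genes of a list of fatty acid uptake and oxidation, to which Ucp3 is usually counted, were lower in GDM, with a median log2 fold change of -1.75. Among them Mlycd, which removes malonyl-CoA and so opens mitochondria to fatty acids, changed by -1.89 on the log2 scale (adjusted p = 1.3e-06, limma), and Angptl4, a PPAR target that inhibits lipoprotein lipase, of -2.71 (adjusted p = 1.3e-05, limma). Fabp3, which binds fatty acids in muscle, had -2.62 and Acadvl, the first enzyme of long-chain fatty acid oxidation, had -1.29. Of 12 fibre genes, 10 were lower, 0 were higher and 2 did not pass, with a median of -0.54. Tcap, Myl1, Tnnc2 and Tnnt3, which encode parts of the contractile apparatus, had log2 fold changes of -1.34, -0.77, -0.77 and -0.56. Relative to the mean log2(FPKM + 1) of the fibre genes in its own library, Ucp3 was 2.27 lower in GDM than in CTR. Relative to the fat oxidation genes it was 1.14 lower, from -0.92 ± 0.18 to -2.06 ± 0.19 (SD, n = 5 each). Both differences held in every library and had an adjusted p of 0.0095 over 6 comparisons (two-sided exact permutation test).

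The genes whose profile over the 10 libraries was most like that of Ucp3 were Plin5, Angptl4, Gpd1, Plin4 and Fabp3. Likeness was the root mean square difference of log2(FPKM + 1), each gene centred on its own mean, among 13940 genes with a mean of at least 1 FPKM in either group. It was 0.23 for Plin5, a protein that couples lipid droplets to mitochondria, against a spread of 1.44 of Ucp3 about its own mean, and 0.30 to 0.36 for the other 4. Plin5 went from 14.5 to 24.2 FPKM in CTR to 1.72 to 2.76 FPKM in GDM. With 2 groups in the design, such a likeness largely states that a gene fell by a similar amount.

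Ucp2, the widely expressed uncoupling protein, had 28.1, 25.1, 15.3, 26.4 and 25.8 FPKM in CTR replicates 1 to 5. In GDM replicates 1 to 5 it had 10.98, 10.4, 9.92, 10 and 8.89 FPKM. CTR replicate 3 was the lowest CTR library and still lay above every GDM library, while the GDM libraries were close together. The mean fell from 24.1 ± 5.06 to 10.04 ± 0.76 FPKM (SD, n = 5 each). The log2 fold change was -1.16 (standard error 0.14, adjusted p = 1.5e-04, limma), with p = 0.0079 in the two-sided exact permutation test. Dnajb13 on the other strand shares 305 bases with Ucp2 and was at 0.0833 to 0.443 FPKM.

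Since Ucp2 is expressed in blood and immune cells, their markers were set beside it. Of 9 tested macrophage markers 2 were lower, against 10.9% of all genes tested, Spi1 with a log2 fold change of -0.52 and Mrc1 with -0.47. The other 7 did not pass, and the median was -0.21. Their summed level was 137.6 to 204.2 FPKM in CTR and 122.4 to 176.2 FPKM in GDM, so that the groups overlapped. Relative to these markers Ucp2 fell by 0.97 on the log2 scale, from 1.49 ± 0.28 to 0.52 ± 0.16 (SD, n = 5 each, adjusted p = 0.0095 over 6 comparisons, two-sided exact permutation test). Neutrophil markers did move with Ucp2. Of 6 tested, 5 were lower and 1 did not pass, with log2 fold changes of -1.39 for S100a8 and -1.38 for S100a9, which encode calprotectin, -1.60 for Retnlg and -1.29 for Camp. Without CTR replicate 2 the number lower was 4. Their summed level was 112.2 to 261.5 FPKM in CTR and 35.5 to 98.1 FPKM in GDM. The only tested lymphocyte marker, Cd79b of B cells, changed by -0.64 on the log2 scale (adjusted p = 0.0063, limma). Slc4a1, the anion exchanger of red cells, was lower, with -1.70, while the 4 haemoglobin genes did not pass, at 0.41 to 0.53. CTR replicate 3, the lowest in Ucp2, was also the lowest CTR library in the macrophage and neutrophil sums. CTR replicate 5 had a similar neutrophil sum, 118.5 against 112.2 FPKM, with Ucp2 at 25.8 against 15.3 FPKM. The part of these cells in the fall of Ucp2 was not tested.

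The profiles most like that of Ucp2 were those of Prr29, Sncg, Epor, Dhrs11 and Ech1, with a root mean square difference of 0.11 to 0.18 against 0.62 for Ucp2 about its own mean. Epor, the erythropoietin receptor, had 3.23 to 4.94 FPKM in CTR and 0.917 to 1.305 FPKM in GDM. Ech1, an auxiliary enzyme of fatty acid oxidation, had 72.0 to 126.8 FPKM in CTR and 33.0 to 40.7 FPKM in GDM. CTR replicate 3 was the lowest CTR library for all 5 of these genes, as it was for Ucp2, a trait that choosing them by profile favours.

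The balance of the neighbours Ucp3 and Ucp2 changed. The ratio of Ucp3 to Ucp2 FPKM was 0.896, 0.858, 1.40, 0.663 and 0.649 in CTR replicates 1 to 5. In GDM replicates 1 to 5 it was 0.133, 0.192, 0.250, 0.199 and 0.203. Ucp3 and Ucp2 were thus at like levels in CTR muscle, and Ucp2 was 3.99 to 7.54 times the level of Ucp3 in GDM muscle. The log2 ratio went from -0.22 ± 0.45 to -2.38 ± 0.33 (SD, n = 5 each), a difference of -2.16 (two-sided exact permutation test, p = 0.0079, a comparison chosen after the values were seen). Only the main transcript of each gene was compared, of 2448 bases for Ucp3 and 3988 bases for Ucp2. These shared no run longer than 24 bases, against reads of 150 bases.

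Ucp1, the proton carrier of brown fat, was found in 4 of 5 CTR libraries and was at the limit of detection in GDM. It had 6.43, 5.32 and 7.88 FPKM in CTR replicates 1, 2 and 5, while in CTR replicate 4 it had 0.855 FPKM. CTR replicate 3 was listed at no signal. GDM replicates 1 and 3 had 0.105 and 0.103 FPKM, and GDM replicates 2, 4 and 5 were listed at no signal. At the estimated depths 3 fragments correspond to 0.0866 to 0.125 FPKM, so no GDM library stood clearly above about 3 fragments, while the 3 highest CTR libraries rested on about 128 to 209 fragments. The groups overlapped through CTR replicate 3 alone, which lay at the level of the GDM libraries.

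Because Ucp1 was below the filter, its log2 fold change of -1.86 (standard error 0.62) came from the fit to all genes, and its size depends on the pseudocount. There its adjusted p was 0.13 over 55401 genes (limma), a fit in which 2.17% of genes were called lower. Over the 31145 genes with any signal in at least 1 library, a setting added after the values were seen, the adjusted p was 0.040, with 5.08% called lower, and without CTR replicate 3 over all genes it was 0.020. Its adjusted p ranged from 0.020 to 0.28 over 15 alternatives. The two-sided exact permutation test gave p = 0.048, unadjusted. The call for Ucp1 therefore turned on which genes were fitted and on CTR replicate 3.

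**Figure D2:**
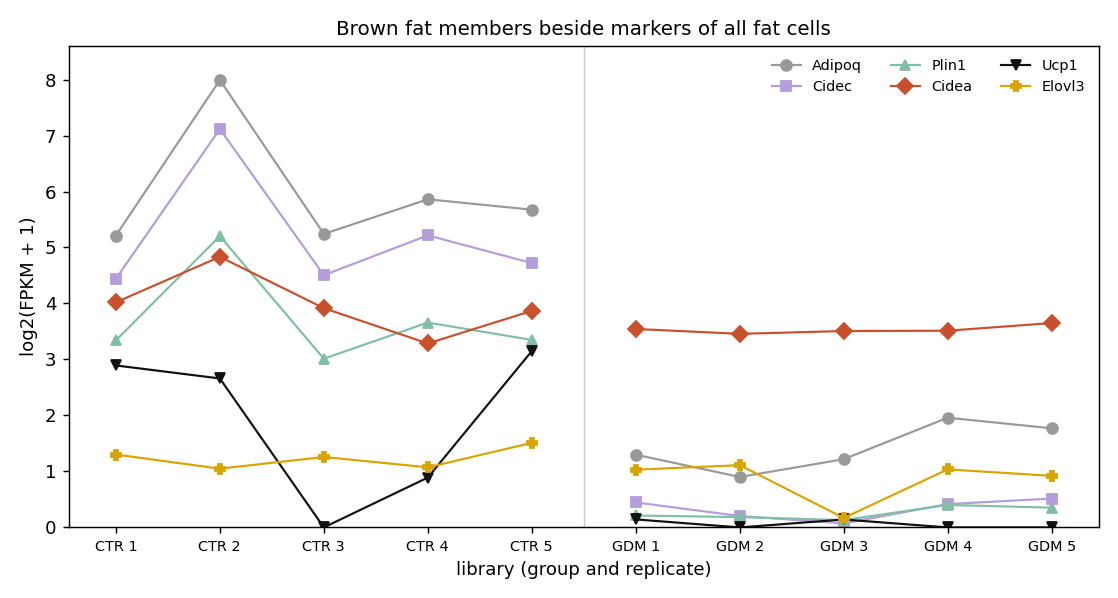
log2(FPKM + 1) of the brown fat genes Ucp1, Cidea and Elovl3 and of the fat cell markers Adipoq, Cidec and Plin1 in each library, with lines joining libraries of a group to guide the eye. The peak of the markers in CTR replicate 2 is shared by Cidea and not by Ucp1 or Elovl3, and Cidea stays near 10 FPKM in the GDM libraries where the markers are low.

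General markers of fat cells moved with the groups. Of 13 tested, 11 were lower in GDM, 0 were higher and 2 did not pass, with a median log2 fold change of -2.42, and the same numbers held without CTR replicate 2, at a median of -2.17. Cidec and Plin1, which coat the lipid droplets of fat cells, had log2 fold changes of -4.87 and -3.46, and Lipe, the hormone-sensitive lipase, had -2.42. Pck1, which makes glycerol for stored fat, had -4.29. The summed level of the list was 941.7 to 3191 FPKM in CTR and 533.9 to 677.1 FPKM in GDM, where 455.8 to 587.7 FPKM came from Car3, which muscle also expresses. Leptin was listed at no signal in GDM replicates 2, 3 and 5. Within CTR the order of the libraries in Ucp1 was not that in Adipoq. CTR replicate 3, with no Ucp1, had 36.8 FPKM of Adipoq, and CTR replicate 1, with 6.43 FPKM of Ucp1, had 36.1 FPKM. Relative to the fat markers the difference of Ucp1 between the groups was 0.82 (adjusted p = 0.18 over 6 comparisons, two-sided exact permutation test), and with a pseudocount of 0.1 it was -0.31, so no direction can be given. The part of fat cells in the level of Ucp1 was not tested.

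The profile of Ucp1 had no close match. The nearest were Rlf, H4c8, Hp, Ifi27l2a and Lrg1, with a root mean square difference of 0.59 to 0.69 against 1.28 for Ucp1 about its own mean. Rlf, a zinc finger gene, had 3.52, 3.46 and 3.36 FPKM in CTR replicates 1, 2 and 5 and 0.835 and 0.131 FPKM in CTR replicates 3 and 4. It had 0.0672 to 0.564 FPKM in GDM. CTR replicates 3 and 4 were thus the lowest CTR libraries for Rlf as for Ucp1, a trait for which Rlf was in effect chosen.

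Cidea, the brown fat lipid droplet protein, was found in every library. It had 15.2, 27.5, 14.1, 8.75 and 13.6 FPKM in CTR replicates 1 to 5. In GDM replicates 1 to 5 it had 10.7, 9.99, 10.4, 10.4 and 11.6 FPKM. The GDM libraries lay close together within the range of the CTR libraries, and CTR replicate 4 was the lowest of all. The means were 15.8 ± 6.98 and 10.6 ± 0.59 FPKM (SD, n = 5 each). Its log2 fold change was -0.45, with a standard error of 0.22 and a 95% interval of -0.95 to 0.05, and did not pass the test, with an adjusted p of 0.13 (limma). Single CTR libraries moved this value. Without CTR replicate 2 it was -0.24 (adjusted p = 0.18, limma), and without CTR replicate 4 it was -0.62 (adjusted p = 0.020, limma), and its adjusted p lay between 0.020 and 0.50 over 17 alternatives. Cidea lies on chromosome 18 at 67343604 to 67367785 of GRCm38. A noncoding transcript of the other strand, B430212C06Rik, shares 500 bases with it and was at 0.124 to 0.487 FPKM.

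Cidea thus differed from the fat cell markers. Its level minus the mean log2(FPKM + 1) of those markers was -0.92 ± 0.50 in CTR and 1.31 ± 0.13 in GDM (SD, n = 5 each). The difference of 2.23 held in every library (adjusted p = 0.0095 over 6 comparisons, two-sided exact permutation test). Cidec, of the same protein family and found in brown and white fat, had 20.7 to 137.7 FPKM in CTR and 0.0519 to 0.43 FPKM in GDM, where Cidea stayed at 9.99 to 11.6 FPKM. Cideb, the liver member, was at most 0.211 FPKM in any library. The profiles most like that of Cidea were those of Sik2, Adipor2, N4bp2l1, Plac9b and Pcsk4, with a root mean square difference of 0.18 to 0.22 against 0.42 for Cidea about its own mean. Adipor2, a receptor of adiponectin, lay between 13.9 and 17.5 FPKM in 9 libraries and at 37.2 FPKM in CTR replicate 2. CTR replicate 2 was the highest library for all 5 of these genes, as for Cidea, and the choice by profile favours such genes.

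**Figure D3:**
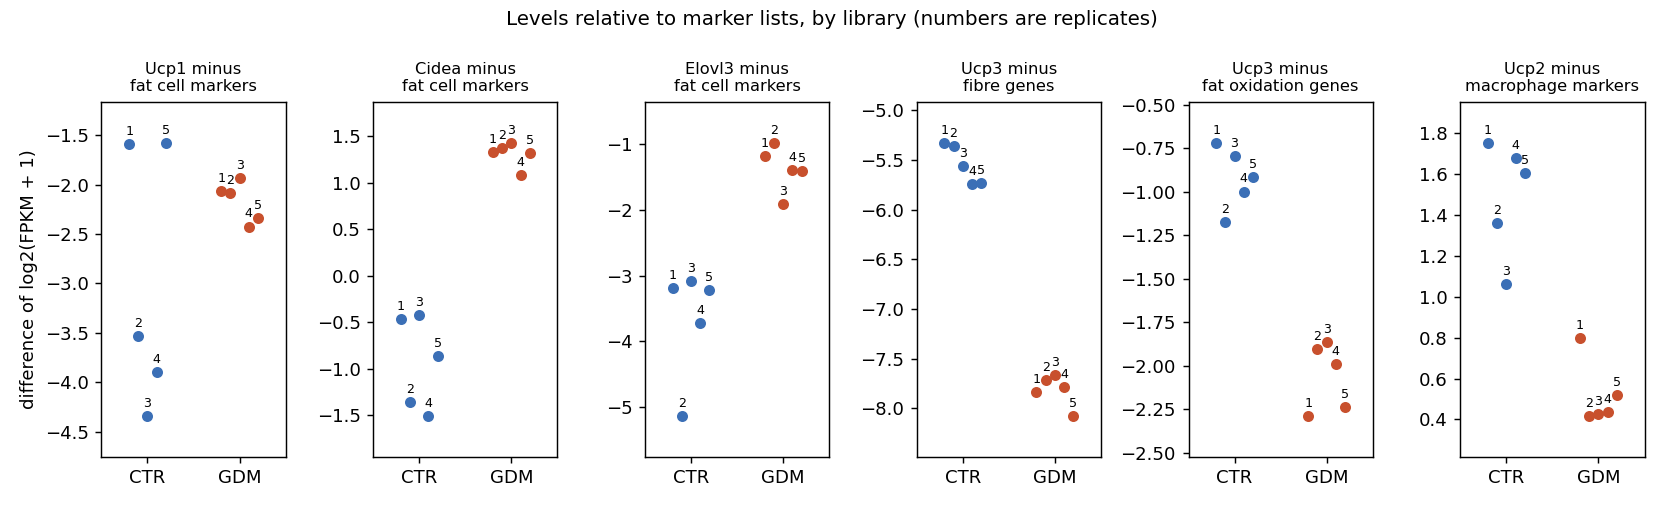
Level of a gene minus the mean level of a marker list in the same library, as differences of log2(FPKM + 1), for 6 pairs (points are libraries, numbered by replicate; each panel has its own scale). The groups are separate in all panels but that of Ucp1, with Cidea and Elovl3 higher in GDM relative to fat cell markers, Ucp3 lower relative to fibre and fat oxidation genes, and Ucp2 lower relative to macrophage markers. The direction for Elovl3 was set beforehand, because it was too low in CTR to fall as far as the markers.

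Elovl3, the fatty acid elongase, was low in all libraries. It had 1.47, 1.07, 1.39, 1.10 and 1.85 FPKM in CTR replicates 1 to 5. In GDM replicates 1 to 5 it had 1.04, 1.16, 0.125, 1.05 and 0.894 FPKM. The groups overlapped, since GDM replicate 2 lay above CTR replicates 2 and 4, and GDM replicate 3 stood far below the rest. The means were 1.38 ± 0.32 and 0.855 ± 0.42 FPKM (SD, n = 5 each), and the log2 fold change was -0.38 (standard error 0.18, 95% interval -0.78 to 0.01, adjusted p = 0.10, limma). The value was -0.21 without GDM replicate 3 (adjusted p = 0.13, limma) and -0.49 after quantile normalization (adjusted p = 0.039, limma), and its adjusted p lay between 0.039 and 0.57 over 16 alternatives. Pitx3 on the other strand shares 10 bases with Elovl3 and was at 8.77 to 12.9 FPKM.

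Relative to the fat cell markers Elovl3 was 2.30 higher in GDM (adjusted p = 0.0095 over 6 comparisons, two-sided exact permutation test). This direction was set beforehand. In CTR Elovl3 reached at most 1.51 as log2(FPKM + 1), while the markers had a median log2 fold change of -2.42. Elovl3 thus had no room to fall as far as they did, and the difference tells nothing of Elovl3 itself. The nearest profiles were those of Rab7b, 2310047D07Rik, 8430429K09Rik, Zswim7 and Tirap, at a root mean square difference of 0.11 to 0.17 against 0.33 for Elovl3 about its own mean. Rab7b, a small GTPase of late endosomes, lay between 1.70 and 1.87 FPKM in 4 GDM libraries and at 0.463 FPKM in GDM replicate 3. All 5 of these genes shared the lowest value in GDM replicate 3, which follows from their choice by likeness to Elovl3. Skin, where Elovl3 is also expressed, was marked by keratins in GDM replicates 1 and 3, and the summed level of the 11 skin and sebaceous markers was 466.3 and 102.1 FPKM there against 2.85 to 4.80 FPKM in the other GDM libraries and 2.87 to 4.25 FPKM in CTR. Elovl3 in GDM replicate 1 lay within the range of the other GDM libraries and in GDM replicate 3 below it, and the part of skin in its level was not tested.

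**Figure D4:**
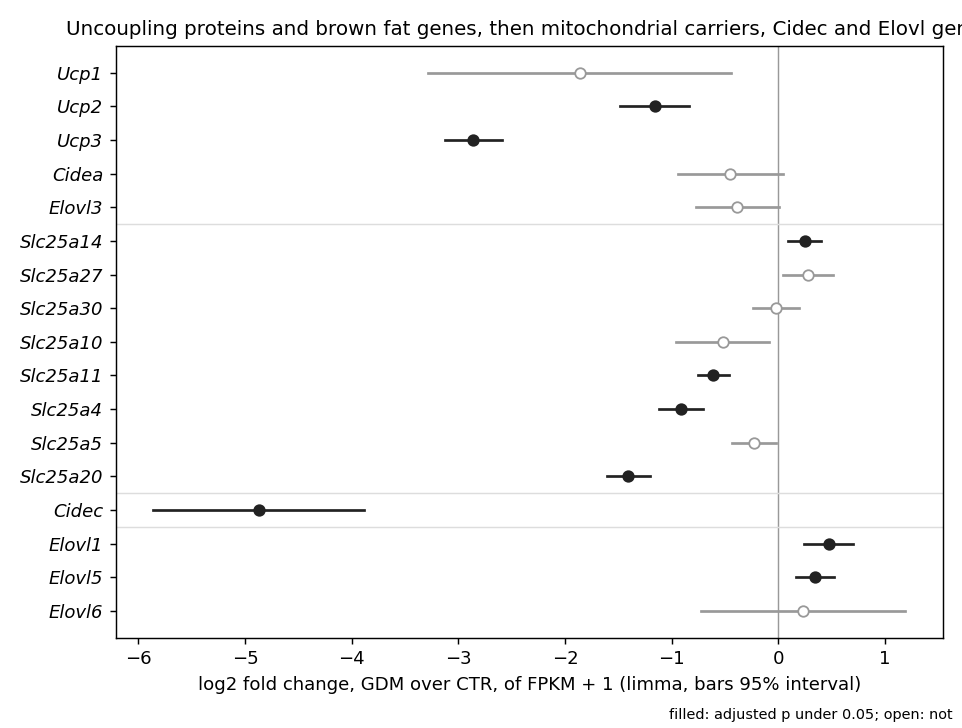
log2 fold change of FPKM + 1, GDM over CTR, with its 95% interval (limma), for the uncoupling proteins, Cidea and Elovl3 at the top and for tested relatives below. Filled points have an adjusted p under 0.05, Ucp1 comes from the fit to all genes, and Ucp3 at -2.86 lies below every mitochondrial carrier shown.

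Other carriers of the inner membrane fell less than Ucp3. Of 8 relatives, all tested, 3 were lower, 1 was higher and 4 did not pass, with a median of -0.38. Among all genes tested, 10.9% were lower and 35.1% higher. Slc25a20, the carnitine-acylcarnitine carrier, changed by -1.41 on the log2 scale (adjusted p = 7.7e-06, limma), and the ADP/ATP carrier of muscle, Slc25a4, had -0.91 (adjusted p = 5.1e-05, limma). Slc25a11, the oxoglutarate carrier, had -0.61. Slc25a14, also called Ucp5, had 0.25 (adjusted p = 0.015, limma), which did not pass after median ratio scaling (adjusted p = 0.14). Slc25a27, also called Ucp4, had 0.28, Slc25a5 had -0.23, Slc25a10 had -0.52 and Slc25a30 had -0.02, none of which passed. Without CTR replicate 2 the numbers were 4 lower and 2 higher, and after median ratio scaling 5 lower and 0 higher. Of the other elongases, 3 of 6 were tested. Elovl1 and Elovl5, which serve most tissues, were higher, with log2 fold changes of 0.47 and 0.34, and neither passed after median ratio scaling (adjusted p = 0.052 and 0.098). Elovl6, which makes stearate, had 0.23 and did not pass, with 0.27 FPKM in GDM replicate 4 against 4.58 to 6.18 FPKM in the other GDM libraries.

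Further genes of the brown fat programme gave a mixed count. Of 20 listed, 10 were tested, 3 were lower, 2 were higher and 5 did not pass, with a median of -0.03 against 0.15 over all genes tested. Of all genes tested, 10.9% were lower and 35.1% higher. The 3 lower genes were Plin5, with a log2 fold change of -2.62, and the respiratory chain subunits Cox7a1, with -1.81, and Cox8b, with -1.16, which muscle also expresses. The summed level of the 20 genes was 357.4 to 603.9 FPKM in CTR and 146.3 to 222.4 FPKM in GDM, of which Cox8b alone gave 228.1 to 410.2 FPKM in CTR and 102.7 to 151.2 FPKM in GDM. The higher genes were Acot11, an acyl-CoA thioesterase, with 0.80, and Ppara, a fatty acid receptor, with 0.51, of which Ppara did not pass after median ratio scaling (adjusted p = 0.077). Ppargc1a, the coactivator that drives Ucp1, had 1.28 to 2.59 FPKM in CTR and 1.34 to 2.34 FPKM in GDM, and its log2 fold change of -0.08 did not pass (adjusted p = 0.70, limma). By other measures, RT-qPCR at ED18.5 and western blot of foetal muscle, the study reported its RNA and protein as lower in GDM. The other 10 genes were below the filter and were not tested. Prdm16, a regulator of brown fat identity, had 0.485 to 0.749 FPKM in CTR and 0.294 to 0.632 FPKM in GDM. Among those picked after their values were seen was Kcnk3, a potassium channel of brown fat cells. It had 6.49 FPKM in CTR replicate 2, 0.849 to 1.43 FPKM in the other CTR libraries and 0.450 to 0.663 FPKM in GDM. Otop1, another channel gene of brown fat, had 0.0323 to 0.246 FPKM in 4 CTR libraries and was listed at no signal in CTR replicate 4 and in all GDM libraries. Dio2, which activates thyroid hormone, had 0.654 to 0.940 FPKM in CTR and 0.645 to 1.24 FPKM in GDM. Zic1 and Lhx8 of the same list also overlapped between the groups. Zic1 had 0.187 to 0.564 FPKM in CTR and 0.333 to 0.743 FPKM in GDM. Lhx8 had 0.024 to 0.430 FPKM in CTR and 0.1315 to 0.380 FPKM in GDM. Adrb3, the adrenergic receptor of fat cells, exceeded 0.254 FPKM only in CTR replicate 2, at 1.305 FPKM.

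Of 7 tested genes of beige and white fat, 1 was lower and 1 higher, against 10.9% and 35.1% of all genes tested. Agt, angiotensinogen, was lower with a log2 fold change of -1.05, and Tmem26, a beige cell marker, was higher with 0.98 (adjusted p = 2.2e-04, limma). The other 5 did not pass, Hoxc9 with -0.21 and Tbx1 with -0.07 among them. Hoxc9 did pass after median ratio scaling (adjusted p = 0.025, limma). Routes of heat production that do not need Ucp1 were also looked at. Of 8 tested, 3 were lower, 2 were higher and 3 did not pass, against 10.9% lower and 35.1% higher of all genes tested. Atp2a1, the calcium pump of fast fibres, had -1.09, Ckmt2, the mitochondrial creatine kinase, had -0.77, and Ryr1, the calcium release channel, had -0.44. Ckb, a creatine kinase that takes part in creatine cycling of brown fat, had 0.49 and Gatm, of creatine synthesis, 0.34, the latter not passing after median ratio scaling (adjusted p = 0.37). Sln, sarcolipin, which uncouples the calcium pump, had 300.8 to 391.7 FPKM in CTR and 302.4 to 415.8 FPKM in GDM and did not pass (log2 fold change 0.07, standard error 0.10). Of 6 tested endothelial markers, 4 were lower, with a median of -0.34, among them Cdh5 with -0.48, Tie1 with -0.36, Pecam1 with -0.34 and Tek with -0.33.

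**Figure D5:**
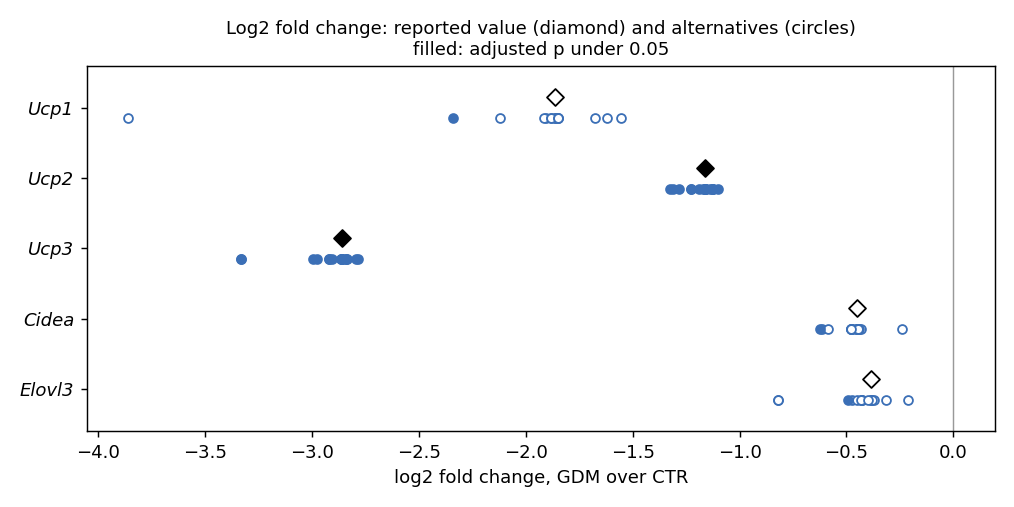
log2 fold change (GDM over CTR) of each gene as reported (diamond) and under each alternative processing or with a library left out (circles), filled where the adjusted p was under 0.05. Ucp2 stays between -1.33 and -1.10 and Ucp3 between -3.33 and -2.78, filled throughout, while Ucp1, Cidea and Elovl3 stay below 0 with few filled points.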

How the data were processed

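Poly(A) RNA of 5 GDM and 5 CTR foetal limb muscles was sequenced by the authors with 150-base paired reads, from libraries that mark the strand. The authors mapped reads with HISAT2 2.0.4 and computed one FPKM value per gene and library with StringTie 1.3.4d, and the deposited FPKM were used as they are. Whether strand was used in quantification is not given in the sources used here. Columns of the authors' own comparison (fold change, its log2, p-value and q-value) were not used.

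log2(FPKM + 1) was fitted with limma 3.58.1 (trend, robust) in R 4.3.3 for genes with 1 FPKM or more in 5 or more libraries, with Benjamini-Hochberg adjustment over 13363 genes and a threshold of 0.05. Values of 0.0001 were taken as no signal. Ucp1 lay below the filter and has its value from the fit to all 55401 genes. The fit was tested on simulated data. Exact permutation tests were run in Python 3.11.15 with scipy 1.17.1 over 10 libraries. Depth was estimated from the steps of low FPKM in genes with 1 transcript, where 42.1% to 52.0% of values lay within 0.05 of whole fragments, so depths are approximate and counting intervals were left out. Positions came from GENCODE vM21. The genes and lists were chosen with earlier results of these data known. Of other lists, up to 4 genes with the smallest adjusted p are named, all tested relatives of Ucp1, Cidea and Elovl3, and the 5 nearest profiles of each gene, and others named were chosen after their values were seen. Alternatives were a pseudocount of 0.1, other filters, median ratio scaling, quantile normalization, a block for the replicate number and the removal of each library in turn. The replicate numbers did not pair the samples. A planned comparison of protein sequences was not run.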

Additional observations from a re-analysis of the deposited data

Results flagged for a closer look

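In 80 genes, the 5 above and 75 of those named beside them, the highest and lowest library of each group was compared with its neighbour. The measure was Dixon's ratio of gap to range (over 0.71 for 5 libraries). Some genes of the text, such as Adipoq and Kcnk3, were not among the 80, so the flags do not cover every gene named. Of 160 groups of libraries, 23 values stood apart. Chance alone flags about 1 in 20 groups, but many of these genes were named for a profile like that of one of the 5, odd libraries included, so the 23 cannot be read against that rate. Of the 5 genes, Ucp2 was low in CTR replicate 3 at 15.3 FPKM, and Elovl3 was low in GDM replicate 3 at 0.125 FPKM.

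CTR replicate 2 was highest in 10 of these, among them Cidec at 138 FPKM, Pck1 at 45.7, Agt at 40.0, Adipor2 at 37.2, Plin1 at 35.8, Lipe at 23.4 and Slc25a10 at 10.9 FPKM. It was also highest in Cdh5 at 58.0 FPKM, N4bp2l1 at 2.32 and Pcsk4 at 1.89 FPKM, and lowest in the fibre genes Tnnt3 at 3000 FPKM and Myl1 at 1680 FPKM. GDM replicate 1 was highest in Krt10 at 86.2 FPKM and Slc25a27 at 3.43 FPKM and lowest in Tnnt3 at 1910 FPKM. GDM replicate 3 was lowest in Rab7b at 0.463 FPKM, GDM replicate 4 was lowest in Elovl6 at 0.27 FPKM, and GDM replicate 5 was highest in Acot11 at 8.07 FPKM and Rlf at 0.564 FPKM. CTR replicate 4 was lowest in 8430429K09Rik at 1.16 FPKM, and CTR replicate 5 was highest in Zswim7 at 12.9 FPKM.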

How the results depend on the processing

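For 14 results, 200 alternatives were run and 191 were rated the same. For a gene or a relative level, the same means an unchanged direction and side of the threshold. For the counts of genes called higher or lower, it means a count within a set factor of the reported one. After median ratio scaling 2653 genes were higher and 2480 lower, and after quantile normalization 2881 and 2343, in place of 4691 and 1451. Ucp2 and Ucp3 passed under all 17 alternatives each. Ucp1 passed over the 31145 genes with any signal (log2 fold change -1.86, adjusted p = 0.040, limma, in a setting added after the values were seen). Its log2 fold change was the same over all 55401 genes, so only the set of genes fitted differed. Leaving out 1 library gave -2.34 to -1.55 for Ucp1, which passed only without CTR replicate 3, and -0.62 to -0.24 for Cidea, which passed only without CTR replicate 4. Elovl3 passed only after quantile normalization, at -0.49. After median ratio scaling Elovl3 and Cidea lay next to the threshold without passing (adjusted p = 0.050 and 0.053, limma). The cause was not tested. Relative to fat cell markers, Ucp1 turned from 0.82 to -0.31 with a pseudocount of 0.1. Requiring 1 FPKM in every library gave no value for Ucp1 and Elovl3.

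With the replicate number as a block, 4171 genes were higher and 1269 lower, and no call for the 5 genes changed, with Ucp1 at -1.86 and an adjusted p of 0.28, Ucp2 at -1.16, Ucp3 at -2.86, Cidea at -0.45 and Elovl3 at -0.38. Libraries with the same number correlated at -0.072 to -0.019 in their deviations from the group means, and 0 of 5 numbers matched best with their own, so the numbers did not pair the samples. Depth limits the GDM values of Ucp1, which lie at about 3 fragments or none. With 5 libraries a group, the exact test cannot go below p = 0.0079.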
